A study of Mus musculus with 2 samples.

Results

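The genes described here are the interferon gamma gene Ifng, both chains of its receptor, Ifngr1 and Ifngr2, both chains of the IL-12 receptor, Il12rb1 and Il12rb2, the IL-12 signal transducer Stat4, the type 1 transcription factor gene Tbx21, the IL-18 receptor chain Il18r1 and the activation marker Cd69. They were selected by symbol, and all 9 were found among the 27998 genes of the deposited count tables. Interferon gamma is the cytokine by which T cells and natural killer (NK) cells activate macrophages. It binds a receptor of 2 different chains, a ligand-binding chain encoded by Ifngr1 and a signalling chain encoded by Ifngr2. IL-12, made by dendritic cells and macrophages, acts through IL-12Rβ1 and IL-12Rβ2 and phosphorylates STAT4, which with T-bet, the product of Tbx21, drives Ifng transcription, and IL-18 adds to this signal. In tumors the axis is known as the link between antigen-presenting cells and cytotoxic lymphocytes.

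Lewis lung carcinoma (LLC) cells, a mouse lung tumor line, were implanted under the skin of C57/BL6 mice aged 8 weeks, and tumors were taken on day 14, when the mice were aged 10 weeks. Control mice were miR-21 flox/flox, and conditional knockout mice were miR-21 flox/flox; LysMCre, so both groups carried the floxed allele. The Cre, driven by the lysozyme M gene, deletes miR-21 mainly in macrophages and granulocytes. Sorted CD45+ cells of 3 mice were pooled into 1 droplet library per genotype, and the study asked how macrophages without miR-21 act on CD8+ T cells. The titles call the libraries wt and cko, whereas the source descriptions give the opposite genotypes, so they are named here by their titles, as labelled wt or labelled cko. Lyz2, the gene into which the Cre was inserted, measured 23802 CPM (UMIs counted per 1000000 UMIs of the class) in monocyte-like cells of the library labelled wt and 11983 CPM in those of the library labelled cko, a log2 ratio of -0.99. The growth protocol names a macrophage gate and the design text CD45+ cells, and T and NK cells were present in both libraries. With 1 pooled library per group there is no replicate and no test, and every interval is a 95% interval for counting error only, Poisson for CPM and binomial for shares and ratios.

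The libraries held 2449 and 2718 cells and 24492486 and 27163485 UMIs, and 5 barcodes occurred in both. Of these, 2445 and 2704 cells were kept and placed in classes by marker UMIs, none of which belonged to the axis. In the order labelled wt, labelled cko, there were 66 and 106 CD8 T-like, 22 and 28 CD4 T-like, 25 and 20 Cd3-positive NK-gene, 24 and 25 other T-like and 56 and 50 NK-like cells, 193 and 229 T and NK cells in all. The myeloid classes held 1130 and 1088 monocyte-like, 737 and 932 C1q macrophage-like, 41 and 58 dendritic (DC)-like, 29 and 82 granulocyte-like and 17 and 19 plasmacytoid (pDC)-like cells. A further 230 and 211 cells were myeloid without meeting any of these gates, 30 and 29 held both lymphoid and myeloid markers, and 38 and 56 stayed unassigned. Cd3e, a chain of the T cell receptor complex, measured 720 and 736 CPM in CD8 T-like cells, and Ncr1, which encodes the NK receptor NKp46, measured 1121 and 1147 CPM in NK-like cells. Granulocyte-like cells held 440 and 383 CPM of the neutrophil receptor gene Cxcr2, but also the macrophage gene C1qa, at 1415 and 1331 CPM with a UMI in 44.8% and 40.2% of cells, against 4150 and 4212 CPM in C1q macrophage-like and 48.8 and 60.6 CPM in monocyte-like cells. The part of macrophage RNA in the granulocyte-like values given here was not tested. The CD4 T-like class also held the regulatory T cell gene Foxp3, at 136 and 177 CPM. Because free RNA and attached cells put lymphocyte UMIs into myeloid droplets, the level expected from such carry-over was computed from Cd3e. Monocyte-like cells held 0.337% and 0.260% of the Cd3e level of the T and NK classes.

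Ifng was the producer gene, and its UMIs came from T and NK cells. Ifng (ENSMUSG00000055170) lies on chromosome 10 at 118441046 to 118445892 on the forward strand of GRCm38. Il12rb2 (ENSMUSG00000018341) lies on chromosome 6 at 67291318 to 67376188 on the reverse strand and overlaps Serbp1 on the opposite strand. The 250 bases before the start of each of these genes, from RefSeq (GRCm38.p6), are shown because the results turn on them. Capitals mark the letters TTCNNNGAA, the core bound by STAT dimers, searched on both strands.
Ifng chr10:118440796-118441045, forward strand: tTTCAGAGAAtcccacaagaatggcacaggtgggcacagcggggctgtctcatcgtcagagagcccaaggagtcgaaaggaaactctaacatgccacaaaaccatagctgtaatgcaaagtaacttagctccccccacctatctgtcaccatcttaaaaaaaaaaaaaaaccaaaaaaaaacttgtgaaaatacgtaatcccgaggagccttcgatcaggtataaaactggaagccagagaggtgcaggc
Il12rb2 chr6:67376189-67376438, reverse strand: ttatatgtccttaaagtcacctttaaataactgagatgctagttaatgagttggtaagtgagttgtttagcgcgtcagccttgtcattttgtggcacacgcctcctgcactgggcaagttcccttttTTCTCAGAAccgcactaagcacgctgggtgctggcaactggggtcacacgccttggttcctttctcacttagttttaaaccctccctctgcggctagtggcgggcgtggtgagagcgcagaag
The match began 249 bases before the start of Ifng and 123 bases before that of Il12rb2. Promoters (300 bases, 250 before and 50 after the start) were found for 7 of the 9 genes, Il12rb1 and Cd69 being without an entry, and 3 of the 7 held the letters in at least 1 of their promoters (Ifng, Il12rb2 and Il18r1), and 2 of the 7 in their first entry (Ifng and Il12rb2), against 8.47% of the 27025 genes with a promoter, each counted by its first entry. The letters GGTGTGA, a T-box core, and TGANTCA, the AP-1 core, searched in the same way, were in none of the members' promoters and in 3.96% and 7.93% of all. A match of letters is a description and not evidence of binding.

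The library labelled wt held 816 Ifng UMIs, of which 86.2% lay in the T and NK classes, and the library labelled cko held 437, of which 93.1% did. In CD8 T-like cells 180 UMIs (288 CPM, 248 to 334) were counted in the library labelled wt and 362 (366 CPM, 329 to 406) in the library labelled cko. Cko over wt gave a log2 ratio of 0.35 (0.08 to 0.61), less than 1.5-fold. After thinning every cell to 3000 UMIs, an Ifng UMI was held by 30.3% (wt) and 43.4% (cko) of CD8 T-like cells (47.0% and 58.5% unthinned), against 0.136% and 0.107% of C1q macrophage-like cells, whose median depth was 11774 and 11243 UMIs against 6496.5 and 7991 in CD8 T-like cells. The intervals of the thinned shares overlapped, at 19.6% to 42.9% (wt) and 33.8% to 53.4% (cko). As a mean over cells, in which each cell has equal weight, the log2 ratio was 0.72, which is past 1.5-fold, so the call depended on how cells were weighted.

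Single cells carried much of the Ifng signal. In the library labelled wt, 7 cells with at least 10 UMIs held 78.9% of all Ifng UMIs, and in the library labelled cko 9 such cells held 49.4%. The 9 were all CD8 T-like, and 3 of the 7 were. The highest cell of the library labelled wt held 343 Ifng UMIs of 5898 UMIs in all (5.82%) together with 57 UMIs of Il3 and 27 of Il2, both cytokines of activated T cells. This other T-like cell had 1 UMI each of Cd3e, Cd3d and Cd3g, the minimum of the T gate, and 0 of Cd8a, Cd4, Gzmb, Il12rb2 and Stat4. The next was an NK-like cell of 30008 UMIs with 156 Ifng UMIs, 725 of the granzyme gene Gzmb and 159 of the chemokine gene Ccl3. By contrast, the highest cell labelled cko was a CD8 T-like cell with 60 Ifng UMIs.

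**Figure D1:**
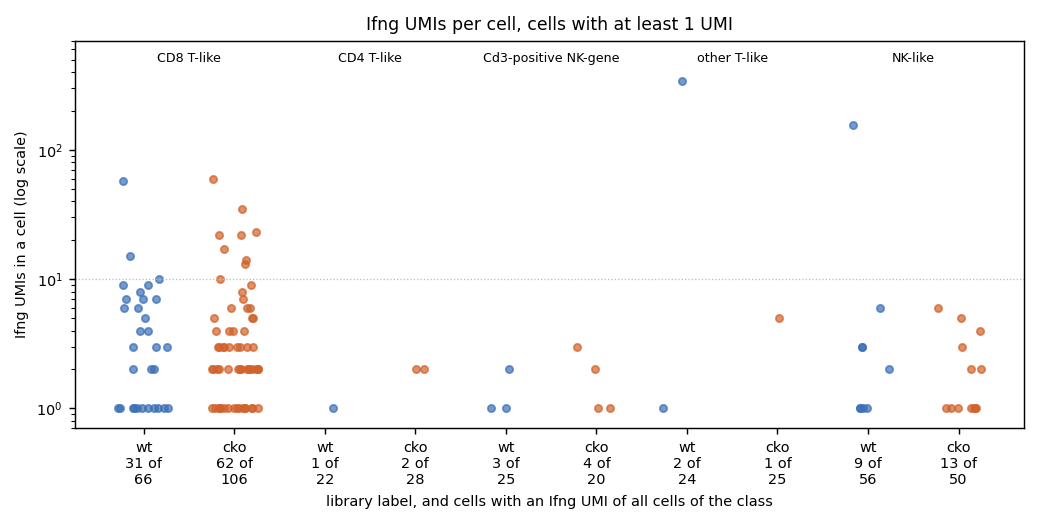
Ifng UMIs (vertical axis, log scale) in each T and NK cell with at least 1 UMI, by class and library; the dotted line marks 10 UMIs. The 343-UMI cell and the 156-UMI cell stand alone in the library labelled wt, while 9 cells of the CD8 T-like class labelled cko reach 10 UMIs or more.

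In CD8 T-like cells 57 of the 180 Ifng UMIs labelled wt lay in 1 cell. Without the top cell of each library the log2 ratio there was 0.56 (0.26 to 0.88). Single cells weighed more on the Ifng ratios outside that class. NK-like cells held 174 Ifng UMIs (348 CPM) in the library labelled wt and 29 (73.1 CPM) in the library labelled cko, a log2 ratio of -2.25 (-2.87 to -1.68). Without the top cell of each library the ratio was 0.66 (-0.29 to 1.63), so the sign rested on 1 cell. Thinned shares ran the other way from the sums, with an Ifng UMI in 7.14% (wt) and 24.0% (cko) of NK-like cells. These were 4 of 56 and 12 of 50 cells, and unthinned 9 of 56 and 13 of 50. In the T and NK classes together 703 and 407 UMIs gave a log2 ratio of -1.05 (-1.22 to -0.87), and without the top cell of each library it was -0.30 (-0.52 to -0.09). Without both of the cells labelled wt with most Ifng UMIs, 343 and 156, and with every cell labelled cko kept, a choice made after seeing the data, the ratio was 0.71, so the sign rested on these cells. Other T-like cells held 344 and 5 UMIs, 343 of them in the cell described above. CD4 T-like cells held 1 and 4 Ifng UMIs and Cd3-positive NK-gene cells 4 and 7.

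Ifng was low in the large myeloid classes. Monocyte-like cells measured 1.67 and 0.467 CPM of Ifng, 1.08 and 0.812 times the carry-over computed from Cd3e, and C1q macrophage-like cells 0.993 and 0.903 CPM, 0.588 and 1.28 times that level. The carry-over labelled wt rests on the 2 highest cells, without which 204 of the 703 Ifng UMIs of its source remain. With the source level taken without them, a choice made after seeing the data, the multiples labelled wt were 3.73 (2.09 to 6.16) in monocyte-like and 2.02 (0.970 to 3.72) in C1q macrophage-like cells, so whether Ifng exceeded carry-over there depended on these cells.

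Receptor chains for interferon gamma divided the classes (Ifngr1, ENSMUSG00000020009, chromosome 10, 19591949 to 19610229, forward strand, and Ifngr2, ENSMUSG00000022965, chromosome 16, 91547072 to 91565623, forward strand). Ifngr1 was measured far above carry-over in lymphocytes, and Ifngr2 mainly in the myeloid classes. Ifngr1 measured 950 and 1092 CPM in other T-like cells, 846 and 908 CPM in NK-like, 811 and 796 CPM in Cd3-positive NK-gene, and 713 and 830 CPM in monocyte-like cells. It measured 736 and 651 CPM in CD4 T-like, 443 and 501 CPM in C1q macrophage-like, 343 and 465 CPM in granulocyte-like, 335 and 475 CPM in CD8 T-like and 251 and 414 CPM in DC-like cells. The values of the last 4 of these classes overlapped between neighbours, and pDC-like cells were lowest at 41.4 and 176 CPM, 18 of the 20 UMIs labelled cko lying in 1 cell. Carry-over from monocyte-like cells, scaled by Lyz2, would give pDC-like cells 15.2 and 18.2 CPM of Ifngr1, so outside that cell, with 4 and 2 UMIs, its presence in this class could not be told from carry-over at this depth.

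Ifngr2 separated the myeloid and pDC-like classes from the lymphocytes, which Ifngr1 did not. It measured 190 and 190 CPM in monocyte-like cells, 163 and 145 CPM in C1q macrophage-like, 156 and 140 CPM in granulocyte-like, 106 and 116 CPM in DC-like and 82.8 and 114 CPM in pDC-like cells. Every T and NK class lay below every one of these in both libraries. CD8 T-like cells held 10 and 2 Ifngr2 UMIs (16.0 and 2.02 CPM), NK-like cells 5 and 2 UMIs (9.99 and 5.04 CPM) and other T-like cells 3 and 1. In the T and NK classes together the level was 13.0 CPM (7.92 to 20) in the library labelled wt and 3.26 CPM (1.19 to 7.09) in the library labelled cko. Monocyte RNA carried over into these droplets, scaled by Lyz2, would give 3.50 and 3.90 CPM, so the library labelled cko was at that background and the library labelled wt 3.71 times above it. Ifngr1, by the same scaling, was 48.3 and 38.5 times above carry-over in the T and NK classes.

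**Figure D2:**
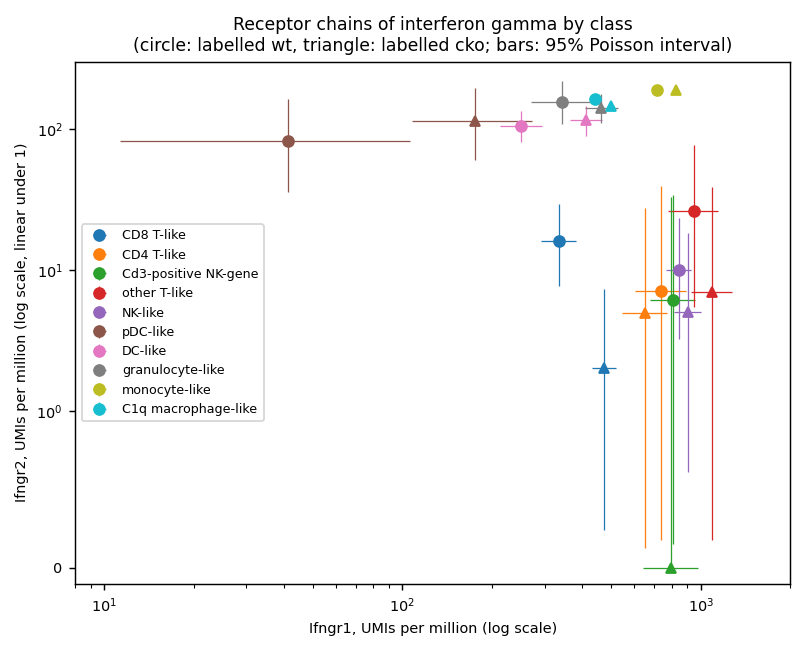
Level of Ifngr1 (horizontal axis) and Ifngr2 (vertical axis) in CPM, both on log scales, for 10 classes labelled wt (circles) and labelled cko (triangles), with 95% Poisson intervals. The myeloid and pDC-like classes lie at 82.8 CPM of Ifngr2 or above, and the T and NK classes at 26.4 CPM or below, while Ifngr1 was at 335 CPM or above in every one of the T and NK classes.

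At the level of single cells, both chains were seen together in 71.9% and 72.4% of monocyte-like cells and 78.0% and 74.9% of C1q macrophage-like cells. The share was 13.6% and 1.89% of CD8 T-like and 8.93% and 4.0% of NK-like cells. After thinning these shares were 36.7% and 36.0% for monocyte-like, 25.6% and 24.4% for C1q macrophage-like and 4.55% and 0.943% for CD8 T-like cells. Between the libraries Ifngr2 did not move in monocyte-like cells (log2 ratio 0.00, -0.10 to 0.10) and was -0.17 (-0.27 to -0.07) in C1q macrophage-like cells. Ifngr1 was 0.22 (0.17 to 0.27) in monocyte-like and 0.18 (0.12 to 0.23) in C1q macrophage-like cells, both under 1.5-fold. In CD8 T-like cells Ifngr1 had a log2 ratio of 0.51 (0.27 to 0.75), and its level depended on the size of the cell. The 19 CD8 T-like cells labelled wt with under 5000 UMIs measured 1092 CPM and the 47 deeper ones 231 CPM, against 829 CPM in 19 and 445 CPM in 87 cells labelled cko. The ratio was 0.94 in cells of at least 5000 UMIs and 0.030 as a mean over cells.

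Il12rb2 UMIs lay mainly in lymphocytes whereas C1q macrophage-like cells held more Il12rb1 UMIs than the T and NK classes, at a lower level per UMI (Il12rb1, ENSMUSG00000000791, chromosome 8, 70808449 to 70821424, forward strand). The T and NK classes held 55.4% and 67.2% of the Il12rb2 UMIs of their libraries and 28.2% and 29.6% of the Il12rb1 UMIs, and C1q macrophage-like cells held 49.1% and 51.4% of the latter. Il12rb2 measured 56.0 CPM (39.0 to 77.9) in CD8 T-like cells labelled wt and 92.0 CPM (74.1 to 113) in those labelled cko, from 35 and 91 UMIs. The log2 ratio was 0.72 (0.14 to 1.32), and 1.06 (0.39 to 1.78) without the top cell of each library. In NK-like cells it measured 60.0 and 58.0 CPM, a log2 ratio of -0.05 (-0.90 to 0.78), and in CD4 T-like cells 7 and 16 UMIs were counted. The study singled out Ifng, Il12rb2 and Cd69 in CD8+ T cells on these same libraries, so their values there are no independent evidence of a direction.

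Among myeloid cells the receptor chains parted. DC-like cells measured 23.1 and 21.8 CPM of Il12rb2, and monocyte-like cells 3.00 and 3.04 CPM, 16.7 and 15.9 times the carry-over from lymphocytes. C1q macrophage-like cells measured 0.794 and 1.15 CPM, and 0 UMIs were found in granulocyte-like cells, where 3 counts would be 13.7 and 5.70 CPM. Il12rb1 ran the other way: C1q macrophage-like cells measured 11.4 and 12 CPM, with a UMI in 12.2% and 12.1% of cells, and monocyte-like cells 3.33 and 3.04 CPM, with a UMI in 2.39% and 2.30%. The C1q macrophage-like level was 72.0 and 82.1 times carry-over and 3.43-fold and 3.95-fold that of monocyte-like cells. In lymphocytes Il12rb1 was at 85.7 and 88.7 CPM in CD4 T-like, 61.6 and 119 CPM in other T-like, 58.0 and 58.0 CPM in NK-like and 24.0 and 23.3 CPM in CD8 T-like cells. The NK-like level was 2.41-fold and 2.49-fold that of CD8 T-like cells.

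Both IL-12 receptor chains were detected together in 6.06% and 10.4% of CD8 T-like cells and 10.7% and 16.0% of NK-like cells, and in under 1% of monocyte-like and C1q macrophage-like cells. After thinning the shares were 0 of 66 and 1 of 106 CD8 T-like cells and 3.57% and 4.0% of NK-like cells. Il12rb2 was then set beside Ifng within CD8 T-like cells. Of 31 Ifng-positive cells labelled wt 48.4% held an Il12rb2 UMI, against 8.57% of 35 Ifng-negative cells, and in the library labelled cko the shares were 54.8% of 62 and 34.1% of 44. Ifng-positive cells were deeper, with a median of 11415 against 5401 UMIs labelled wt and 8953.5 against 6446 labelled cko. At equal depth the shares were 35.0% against 8.70% labelled wt, from 7 of 20 and 4 of 46 cells, and 30.4% against 25% labelled cko, from 14 of 46 and 15 of 60 cells.

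Stat4, the signal transducer of IL-12 (ENSMUSG00000062939, chromosome 1, 51987148 to 52107189, forward strand), was not a lymphocyte gene alone. It measured 88.1 and 89.0 CPM in CD8 T-like, 90.0 and 98.3 CPM in NK-like, 64.3 and 148 CPM in CD4 T-like and 140 and 134 CPM in Cd3-positive NK-gene cells. DC-like cells measured 112 CPM (87.1 to 142) and 157 CPM (127 to 193) of Stat4, 314 and 524 times the carry-over from lymphocytes. Within that class the level followed the genes of mature, migrating dendritic cells. Cells with at least 3 UMIs of Ccr7 and Fscn1 together, a division chosen after these values were seen, measured 479 and 386 CPM of Stat4, and the other DC-like cells 26.5 and 40.5 CPM. The cells with Ccr7 and Fscn1 also held 10 of the 14 and 12 of the 13 Il12rb2 UMIs of the class, at 87.1 and 59.4 CPM. Monocyte-like cells measured 20.5 and 24.2 CPM and C1q macrophage-like cells 8.84 and 9.93 CPM of Stat4, 65.8 and 96.1 times and 25.7 and 32.1 times carry-over. Between the libraries Stat4 had a log2 ratio of 0.02 (-0.49 to 0.53) in CD8 T-like, 0.13 (-0.53 to 0.78) in NK-like and 0.23 (-0.06 to 0.53) in monocyte-like cells. It was 1.20 (0.09 to 2.46) in CD4 T-like cells, from 9 and 30 UMIs, and 0.49 (0.02 to 0.96) in DC-like cells. The share of cells with Ccr7 and Fscn1 in the DC-like class, 31.7% and 46.6%, moved with the latter ratio, and within those cells the Stat4 level was lower in the library labelled cko, as given above. The part of this share in the ratio was not tested.

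Tbx21 (ENSMUSG00000001444, chromosome 11, 97098071 to 97115331, reverse strand) stayed with T and NK cells. It measured 85.4 and 134 CPM in Cd3-positive NK-gene cells, 86.0 and 98.3 CPM in NK-like cells, 79.2 and 56.0 CPM in other T-like cells and 35.7 and 39.4 CPM in CD4 T-like cells. In monocyte-like cells it was at 0.333 and 0.234 CPM, 1.21 and 1.30 times carry-over. In CD8 T-like cells 88.1 CPM (66.3 to 115) labelled wt stood against 57.6 CPM (43.7 to 74.7) labelled cko, a log2 ratio of -0.61 (-1.17 to -0.05). Thinned shares of CD8 T-like cells with a UMI were 27.3% and 13.2%, from 18 of 66 and 14 of 106 cells. Unthinned, a Tbx21 UMI was held by 30 of 66 and 43 of 106 cells, so the shares lay closer together than after thinning. In NK-like cells the log2 ratio was 0.19 (-0.47 to 0.85).

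Il18r1, the ligand-binding chain of the IL-18 receptor (ENSMUSG00000026070, chromosome 1, 40465552 to 40500854, forward strand), was likewise lymphoid. It measured 76.9 and 81.9 CPM in CD8 T-like, 88.0 and 77.0 CPM in other T-like and 42.9 and 73.9 CPM in CD4 T-like cells, and under 1 CPM in monocyte-like and C1q macrophage-like cells. The CD8 T-like ratio was 0.09 (-0.44 to 0.64). In NK-like cells 36.0 CPM (21.3 to 56.9) and 70.6 CPM (46.9 to 102) gave a log2 ratio of 0.97 (0.07 to 1.91), from 18 and 28 UMIs.

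Cd69, an early activation marker of lymphocytes that retains them in tissue (ENSMUSG00000030156, chromosome 6, 129267325 to 129275436, reverse strand), reached its highest level in other T-like cells at 246 and 266 CPM. It measured 116 and 197 CPM in Cd3-positive NK-gene, 118 and 131 CPM in NK-like, 100 and 113 CPM in CD4 T-like and 93.1 and 96.6 CPM in pDC-like cells. CD8 T-like cells were lower, at 36.8 CPM (23.3 to 55.3) and 54.6 CPM (41.0 to 71.3), a log2 ratio of 0.57 (-0.16 to 1.34). In that class Cd69 UMIs were not more frequent among Ifng-positive cells: 19.4% of Ifng-positive and 22.9% of Ifng-negative cells labelled wt held one, and 19.4% and 45.5% of those labelled cko. Monocyte-like cells measured 19.1 CPM (16.4 to 22.2) and 31.9 CPM (28.2 to 35.9), 61.2 and 119 times carry-over. A Cd69 UMI was held by 107 of 1130 and 125 of 1088 of them, and after thinning by 54 and 66, so the shares differed less than the sums. The log2 ratio of 0.74 (0.46 to 1.02) was unchanged without the top cells. In the myeloid cells outside the named classes it was -0.50 (-1.28 to 0.24), from 43 and 25 UMIs. C1q macrophage-like cells measured 12.3 and 11.9 CPM, with a ratio of -0.05 (-0.41 to 0.31).

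**Figure D3:**
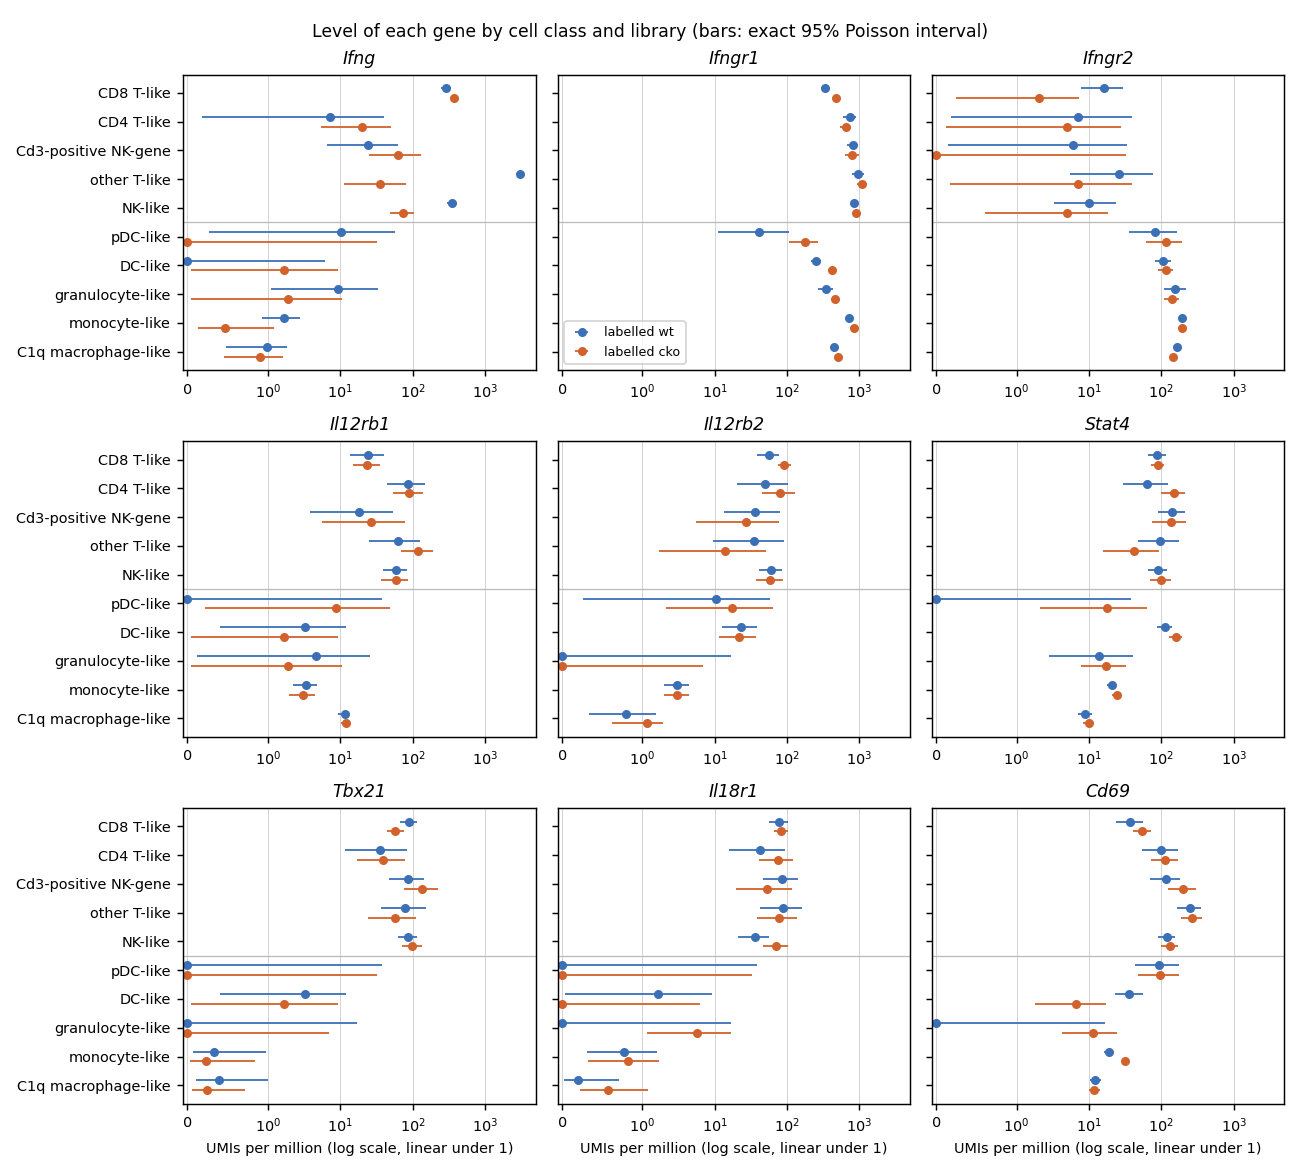
Level of each gene in CPM (horizontal axis, log scale, linear under 1) in 10 classes (rows) labelled wt (blue) and labelled cko (orange), with exact 95% Poisson intervals; T and NK classes stand above the grey line. Ifng, Tbx21 and Il18r1 have their highest values above the line and Ifngr2 below it, and Stat4 has high values on both sides.

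Among the ligand genes, Il12b was found mainly in DC-like cells. Il12b, which encodes the p40 subunit of IL-12 and IL-23, had 70.0% and 93.6% of its UMIs in the DC-like class. That class held 14 Il12b UMIs in 5 of 41 cells (23.1 CPM, 12.6 to 38.8) labelled wt and 117 in 9 of 58 cells (196 CPM, 162 to 235) labelled cko, a log2 ratio of 3.09 (2.28 to 4.0). The top cells held 8 and 42 UMIs, and without them the ratio was 3.67. All 14 and all 117 UMIs lay in the cells with Ccr7 and Fscn1, which were 13 of 41 and 27 of 58 DC-like cells, and within them the levels were 122 and 579 CPM, a log2 ratio of 2.25 (1.44 to 3.16). The share of such cells moved with the ratio, and its part in the result was not tested. Monocyte-like cells held 0 Il12b UMIs in both libraries, where 3 counts would be 0.333 and 0.350 CPM, and C1q macrophage-like cells 0 and 8 UMIs, the 8 in 4 of 932 cells. Il12a, the partner subunit p35, was at 0 UMIs in DC-like cells of both libraries. Il18 was a monocyte and macrophage product, with 144 and 134 CPM in monocyte-like and 111 and 102 CPM in C1q macrophage-like cells. Its soluble inhibitor Il18bp measured 77.0 and 58.6 CPM in C1q macrophage-like cells, a log2 ratio of -0.39 (-0.54 to -0.24).

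The genes that differed by 1.5-fold between the libraries were counted by class, beside the share of all genes that did. Among genes with at least 20 UMIs over both, 1 of 8 was higher (Il12rb2) and 1 of 8 lower (Tbx21) in CD8 T-like cells labelled cko, against 11.3% and 7.11% of all genes tested. By median-of-ratios scaling Tbx21 (-0.58) no longer passed and Cd69 (0.60) did, which made 2 of 8 higher and 0 lower, against 12.4% and 6.63% of all genes under that scaling. In NK-like cells 1 of 8 was higher (Il18r1) and 1 of 8 lower (Ifng), against 11.2% and 12.7%. In the T and NK classes together 0 of 9 were higher and 2 of 9 lower (Ifng and Ifngr2), against 7.38% and 7.24%. In monocyte-like cells 1 of 6 was higher (Cd69) and 0 lower, against 4.01% and 2.91%, and in C1q macrophage-like cells 0 of 7 passed in either direction, against 5.47% and 2.44%.

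**Figure D4:**
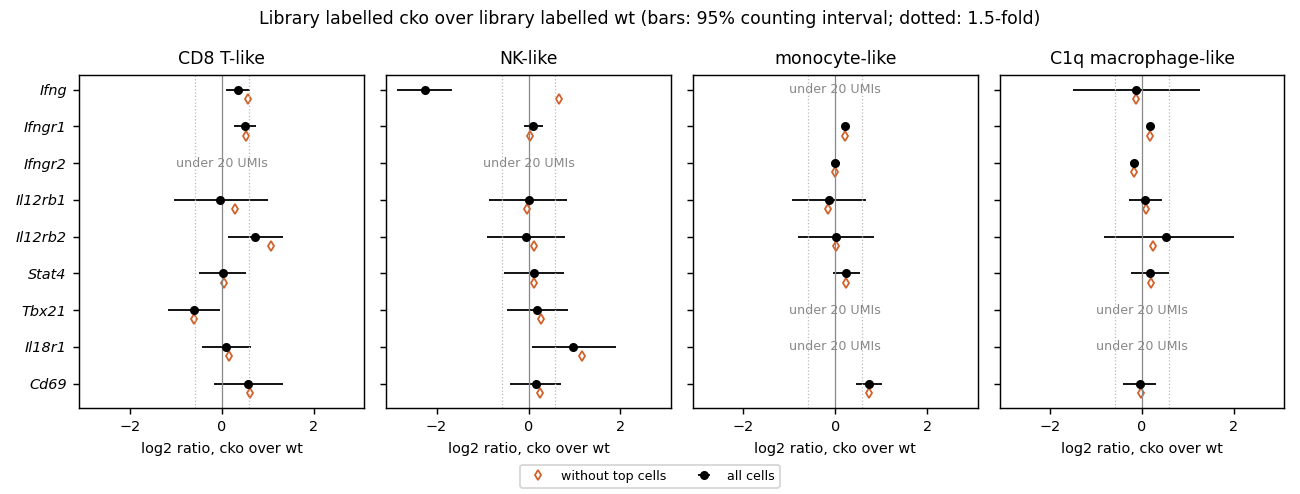
Log2 ratio of cko over wt (horizontal axis) for each gene with at least 20 UMIs in 4 classes, with 95% counting intervals (black) and the value without the cell with most UMIs of that gene in each library (orange). Removing the top cells moves Ifng in NK-like cells from -2.25 to 0.66 and leaves Cd69 in monocyte-like cells at 0.74.

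The classes were compared with each other in the same way, within each library. NK-like exceeded CD8 T-like cells by 1.5-fold in both libraries for 3 of 8 genes (Ifngr1, Il12rb1 and Cd69), against 5.74% of all genes, and CD8 T-like cells exceeded NK-like cells for 0 of 8, against 6.23%. Ifng was 5.01-fold higher in CD8 T-like than in NK-like cells labelled cko. In the library labelled wt it was 1.21-fold higher in NK-like cells, where 156 of 174 Ifng UMIs lay in 1 cell. The count was not recomputed without that cell. C1q macrophage-like cells exceeded monocyte-like cells for 1 of 6 (Il12rb1), against 15.3%, and monocyte-like cells exceeded C1q macrophage-like cells for 4 of 6 (Ifngr1, Il12rb2, Stat4 and Cd69), against 7.84%.

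The wider pathway lists were counted in the same way. They also hold every member except Ifng, so member calls given above recur in them. All genes tested gave 4.01% higher and 2.91% lower in monocyte-like, 11.3% and 7.11% in CD8 T-like and 11.2% and 12.7% in NK-like cells, beside which the counts are to be read. Of 22 interferon gamma response genes 21 were tested in monocyte-like cells, and 1 passed 1.5-fold upwards and 1 downwards, cko over wt. Their median log2 ratio was -0.17, with 17 of 21 below 0, against a median of 0.031 and 43.1% below 0 over all genes tested there. In C1q macrophage-like cells the median of this list was -0.026, with 12 of 21 below 0, against 41.7% of all genes, and 2 passed upwards and 0 downwards. The 2 that passed in monocyte-like cells were Gbp2b, a guanylate-binding protein gene, at 1.45 (1.30 to 1.62) and Nos2, the inducible nitric oxide synthase, at -1.05 (-1.97 to -0.18). Early activation genes in monocyte-like cells all had ratios above 0, 6 of 6, against 56.9% of all genes tested, with a median of 0.41, and 2 passed 1.5-fold, Cd69 and Egr1, an immediate early transcription factor at 0.81 (0.51 to 1.11). In C1q macrophage-like cells 4 of 6 of them were above 0 and 1 passed. In CD8 T-like cells the other lymphocyte cytokines numbered 3 higher and 1 lower of 6. Ccl4, a chemokine, had a ratio of 1.03 (0.83 to 1.24) and Xcl1, which attracts cross-presenting dendritic cells, 1.28 (0.54 to 2.09). In the library labelled cko 339 of 837 Ccl4 and 41 of 73 Xcl1 UMIs lay in 1 cell each, and without the top cells the ratios were 0.84 and 0.87. Nfkbia, the NF-κB inhibitor, had 1.35 (1.02 to 1.70) and Gbp2 -0.74 (-1.45 to -0.04). In NK-like cells Ccl4 had 2.23 (1.95 to 2.52), with 248 of 494 UMIs labelled cko in 1 cell, and 1.96 without the top cells. Cd74 and H2-Ab1, of antigen presentation, had -2.15 and -1.96 there, with 459 and 230 UMIs in 1 cell labelled wt that held 3 UMIs of the NK markers, the minimum of the NK gate, a different cell from that with 156 Ifng UMIs, and -1.19 and -1.04 without the top cells. Receptor chains numbered 1 higher and 0 lower of 6 in each of CD8 T-like and NK-like cells. These were the members Il12rb2 and Il18r1, already counted above. Kinases, STATs and adaptors numbered 1 and 0 of 6 in CD8 T-like and 0 of 6 in NK-like cells. Inhibitors numbered 1 higher and 1 lower of 5 and 1 lower of 4. Type 1 transcription factors numbered 1 lower of 6 in CD8 T-like cells, the member Tbx21, and 0 of 6 in NK-like cells. Interferon gamma response genes numbered 1 higher and 1 lower of 15 in CD8 T-like and 2 lower of 14 in NK-like cells. Early activation genes numbered 1 higher of 6 in CD8 T-like and 1 higher and 1 lower of 5 in NK-like cells, and the other lymphocyte cytokines 3 higher of 5 in NK-like cells. Of the 7 IL-12 family ligand genes, IL-18 included, 4 were tested in monocyte-like cells and 0 passed, and 0 reached 20 UMIs in CD8 T-like or NK-like cells. In monocyte-like cells 0 of 5 receptor chains, 0 of 8 kinases, STATs and adaptors, 0 of 6 inhibitors and 0 of 5 transcription factors passed, and 1 of 6 other cytokine genes was higher.

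Profiles over the 10 classes, as mean log2(CPM + 1), placed Vps13a nearest to Ifng among 10269 genes (Pearson r = 0.96), before F2r (0.93) and Sytl3 (0.92). Nearest to Il12rb2 were Pla2g16 (0.97), Slc1a5 (0.96) and Serpinb6b (0.96), and to Stat4 Id2 (0.98), Krtcap3 (0.94) and Myl6 (0.94). Ascc3, Cops7b and Arl4c were nearest to Ifngr1 (0.94 each). These are descriptions over classes that share libraries and depth.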

How the data were processed

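The authors deposited raw UMI counts per gene and cell for 2 libraries (Chromium Single Cell 3′ v2, cells already called). Cell Ranger, Seurat and mm10 are named in the submitters' processing notes. Kept cells had 200 genes or more and no more than 10% mitochondrial UMIs. Classes were gated by summed marker UMIs, for example at least 3 UMIs of Cd3e, Cd3d and Cd3g for T cells. The 59 cells positive for both lymphoid and myeloid markers were set aside. The doublet caller Scrublet was run only as an alternative, and the reported values keep the cells it scored highest. UMIs were summed per class and library, since cells are not replicates. Shares were thinned to 3000 UMIs per cell, which left out 0 cells. Ratios have exact conditional binomial intervals and shares Clopper-Pearson intervals. The interval code was tested on simulated data. Every member was named, the 3 nearest profiles of 4 members (genes with at least 100 UMIs), and in CD8 T-like, NK-like and monocyte-like cells the 4 pathway genes with the largest ratio among those with at least 50 UMIs. Other genes, such as Lyz2, Il3, Il18, Il18bp, Il12a and Il12b, were named after their values were seen. The members and lists were chosen with earlier results of these data known. Carry-over was a source class level multiplied by the ratio of a marker's level in target and source. Alternatives were another scaling, a mean over cells, stricter gates, Scrublet, deeper cells, a lower mitochondrial limit, other filters, folds and thinning. Python 3.11.15 was used with numpy 2.4.6, scipy 1.17.1 and scanpy 1.11.5. Rows for Mir21a were not analysed here. Protein sequences were not used here.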

Additional observations from a re-analysis of the deposited data

Results flagged for a closer look

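Ifng had counting intervals on opposite sides of 0 in different classes. The log2 ratio of cko over wt was 0.35 in CD8 T-like cells, -2.25 in NK-like cells and -6.43 in other T-like cells. The last rested on 343 of 344 UMIs in 1 cell, and the difference between classes was not tested across animals. Without the top cell of each library the NK-like ratio was 0.66. Cd69 differed in the same way, at 0.74 in monocyte-like cells and -2.44 in DC-like cells, where 15 of the 22 UMIs labelled wt lay in 1 cell and 4 UMIs were labelled cko. Without the top cells the DC-like ratio was -1.82 (-5.12 to 0.58). This difference was not tested either.

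Cells set aside because they held both lymphoid and myeloid markers carried 74 Ifng UMIs in the library labelled wt and 7 in the library labelled cko, above the 3 counts that a level of 0 allows. In the library labelled wt 45 and 18 of these lay in 2 cells of 15686 and 43564 UMIs with 72 and 1043 Gzmb UMIs.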

How the results depend on the processing

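Of 269 recomputed ratios 257 stayed within the counting interval of the reported value, 10 moved beyond it and 2 were counted as reversed. A change of sign was counted only where the reported value was at least 1.5-fold. Smaller ratios that crossed 0 stand among the others, such as Il12rb1 in CD8 T-like cells, which went from -0.05 to 0.28 without the top cells. The 2 reversed ratios were Ifng in NK-like cells, at 0.66 without the top cell of each library, and Ifng in the T and NK classes together, at 0.71 when the 2 cells labelled wt with most UMIs, and no cell labelled cko, were left out (chosen after seeing the data). Without the top cell of each library the latter stayed negative, at -0.30 (-0.52 to -0.09). As a mean over cells, Ifng was 0.72 in CD8 T-like and -0.55 in NK-like cells and Ifngr1 0.030 in CD8 T-like cells, where cells of at least 5000 UMIs gave 0.94. The cause was not tested. The members past the fold are given with the share of all genes past it under the same setting. In CD8 T-like cells 2 of 8 were higher by median-of-ratios scaling (12.4%) or stricter gates (12.2%) and 0 of 8 by the 2-fold limit (3.78%). There 2 of 9 were lower at 10 UMIs (10.7%) or with no filter (20.5%), and 0 of 8 by median-of-ratios scaling (6.63%) or 2-fold (1.76%). In NK-like cells 0 of 8 were higher by 2-fold (2.98%) and 2 of 9 lower with no filter (28.8%). In the T and NK classes together 1 of 9 was lower with stricter gates (7.76%). In monocyte-like cells 0 of 6 were higher by 2-fold (1.12%), and 1 was lower of 8 at 10 UMIs (4.59%), of 9 with no filter (12.3%) and of 7 with stricter gates (3.06%). In C1q macrophage-like cells 1 of 9 was higher (15.9%) and 1 lower (10.7%) with no filter. Of 144 recomputed shares 99 left their interval, since shares depend on the thinning depth.

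Removing the cells that Scrublet scored highest took out 48 and 58 cells, 1 and 5 of them T or NK cells. Depth limits the lymphocyte values, since most rest on fewer than 100 UMIs. Differences between mice within a pool cannot be told apart from genotype, because each genotype is 1 pooled library. No paired analysis was possible because the result comes from no test.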
